A study of Homo sapiens with 18 samples.

Results

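The 48 genes described here encode the machinery that copies DNA: the origin recognition complex, the licensing factors, the MCM helicase and its activators, the replicative polymerases, the sliding clamp and its loader, the enzymes that join Okazaki fragments, the single-strand binding protein RPA, 3 enzymes that supply deoxynucleotides, and the checkpoint mediator CLSPN. They were taken by gene symbol from a list of replication genes, by a rule that uses no measured values. The list was chosen with earlier results of these data known. All 48 were found among the 20263 genes of the count table, and all 48 were among the 14234 genes kept for testing. RNA sequencing had been run on 18 libraries of wild type cells, 3 in each of 6 groups: 20 nM H3B-8800 for 24 h against DMSO, the solvent control, under each of the line labels MHCC-97H (liver cancer), MDA-MB-231 (breast cancer) and HCT-116 (colon cancer). All cells, controls included, were grown with 10% serum. H3B-8800 is a small molecule that binds the SF3B1 subunit of the spliceosome and modulates the choice of branch points. Nothing in the labels states that replicate libraries are separate cultures, and p-values measure only the spread between these samples.

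Replication starts in G1, when the origin recognition complex, CDC6 and CDT1 load inactive MCM rings onto DNA. In S phase the kinases CDC7-DBF4 and CDK turn those rings, with CDC45 and GINS, into active helicases, and primase, the polymerases, PCNA and its loader follow. Genes for many of these proteins are switched on together at the border of G1 and S by E2F factors, and cancer cells that divide fast usually express them at high levels. In bulk RNA, a different share of cells in S phase and a different amount of RNA per cell cannot be told apart.

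The libraries held 28232315 to 41488278 counts each, and every member had at least 45 counts in every library. Levels are given as CPM, counts scaled to library size with TMM factors. The marker genes in this paragraph and the limit for 0 counts were scaled to library totals alone. Several marker genes went against the line labels. The intestinal keratin KRT20 averaged 898 CPM in MDA-MB-231 libraries and 912 CPM in those of HCT-116. Of other intestinal genes, LGALS4 (417 and 416 CPM), VIL1 (204 and 214 CPM) and CDH17 (101 and 105 CPM) were also present there. CDX2 was at 5.33 and 5.53 CPM, and CDX1 was at 0 under every label. KRT20 had 0 counts over the 6 MHCC-97H libraries, a total at which a level of at most 0.0142 CPM is allowed by counting error. The liver genes ALB, APOA1, APOB, TTR, AFP and SERPINA1 also had 0 counts in those 6 libraries, and HNF4A was at 4.86 CPM. In MDA-MB-231 and HCT-116 libraries ALB averaged 17.2 and 21.2 CPM and HNF4A 28.6 and 35.7 CPM. EPCAM, an epithelial gene, was at 0.0176 and 0.0808 CPM there, against 16.3 CPM in MHCC-97H. CDH1, KRT8, KRT18 and KRT19 were higher there than in MHCC-97H. VIM averaged 1187 CPM in MHCC-97H, against 19.6 and 22.05 CPM, and GATA3 0 against 49.8 and 50.9 CPM. Between the MDA-MB-231 and HCT-116 DMSO groups 5 of 14234 genes were called different. These labels thus carry nearly one expression profile, and results under them are not evidence from separate lines. Each result below belongs to a label, and which line the cells are was not tested.

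Promoter sequence is shown first because E2F sites are the best known feature that replication genes share. In RefSeq promoters (build GRCh38.p14), 42 of the 48 members had an entry, and GINS4, MCM4, MCM5, POLD3, RPA2 and RPA3 were not matched. The letters TTCCCGC or TTGGCGC, 2 forms of the E2F site, were searched on both strands of the 250 bases before the start, counting a window once if both were present. They were found in 20 of 42 members (47.6%), against 9.41% of 27305 gene symbols with a promoter entry. Those symbols include genes that were not tested here, while all members were tested. The letters CCAAT, the site of the factor NF-Y, were found on either strand in 25 of 42 members (59.5%), against 37.0% of all symbols. These are counts of letters, not of occupied sites. The 160 bases before the RefSeq start are printed for 2 genes that were higher after H3B-8800 and 2 that were lower under the MHCC-97H label, to show that both directions include genes with E2F-type letters (capitals):
POLA1 (chrX:24693758-24693917, plus strand): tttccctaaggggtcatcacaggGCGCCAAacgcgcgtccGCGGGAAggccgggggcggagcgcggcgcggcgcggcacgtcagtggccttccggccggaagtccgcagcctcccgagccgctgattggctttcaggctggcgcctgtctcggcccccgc
MCM6 (chr2:135876444-135876603, minus strand): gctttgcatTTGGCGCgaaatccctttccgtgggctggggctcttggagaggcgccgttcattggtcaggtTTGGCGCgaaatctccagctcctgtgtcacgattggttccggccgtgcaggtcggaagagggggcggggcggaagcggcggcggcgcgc
CDT1 (chr16:88803629-88803788, plus strand): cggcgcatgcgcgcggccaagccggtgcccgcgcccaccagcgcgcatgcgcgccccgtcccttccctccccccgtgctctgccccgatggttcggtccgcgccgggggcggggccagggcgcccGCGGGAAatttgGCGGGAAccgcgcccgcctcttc
RFC4 (chr3:186806483-186806642, minus strand): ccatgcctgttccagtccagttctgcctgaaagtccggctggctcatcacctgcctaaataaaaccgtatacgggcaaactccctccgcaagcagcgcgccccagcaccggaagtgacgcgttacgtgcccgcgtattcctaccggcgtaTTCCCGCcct
The first bases of the matches lay 137 and 120 bases before the start in POLA1, 151 and 89 in MCM6, 35 and 23 in CDT1, and 10 in RFC4. In GENCODE the CDT1 and RFC4 genes begin upstream of the RefSeq start, so their printed bases lie inside the annotated gene. Of the members with a promoter entry, E2F-type letters were held by 3 of 7 called higher, 4 of 7 called lower and 13 of 28 not called. CCAAT was held by 6 of 7, 2 of 7 and 17 of 28, in the same order. No test was made of these shares.

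Under the MHCC-97H label, replication genes were called in both directions with TMM factors, also within single complexes, as were genes at large. The lower calls were not made with library totals. Calls were made by edgeR at a p under 0.05 after Benjamini-Hochberg adjustment over all 14234 genes. Of the 48 members, 18 were called, 8 higher and 10 lower, where 27.6% of all genes were called, 12.9% higher and 14.7% lower. The median log2 fold change was -0.067 over the members and -0.058 over all genes tested. The treated and control libraries did not overlap for 29 members, where 47.6% of all genes did not overlap. At an unadjusted p under 0.05 there were 24 members, where 39.2% of all genes passed. The 8 higher genes were POLA1, CLSPN, RFC1, CDC7, MCM10, POLD3, ORC2 and MCM6, with log2 fold changes of 0.40 to 1.33. The 10 lower genes were POLD1, MCM5, CDT1, RPA2, RPA3, POLD2, RFC4, MCM7, FEN1 and TYMS, with -0.32 to -0.17. The count depended on single libraries: it was 9 without DMSO replicate 3 and 8 without H3B-8800 replicate 2. Calls over all genes fell too, to 2141 of 14391 and 2336 of 14394 in these fits, against 3922 of 14234 with all libraries. Of the higher genes, 5 (MCM6, POLA1, RFC1, CLSPN and POLD3) were called in each of 29 alternative fits, which changed the scaling, filter or tool, removed a trend on GC content and length, or left out 1 library.

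**Figure D1:**
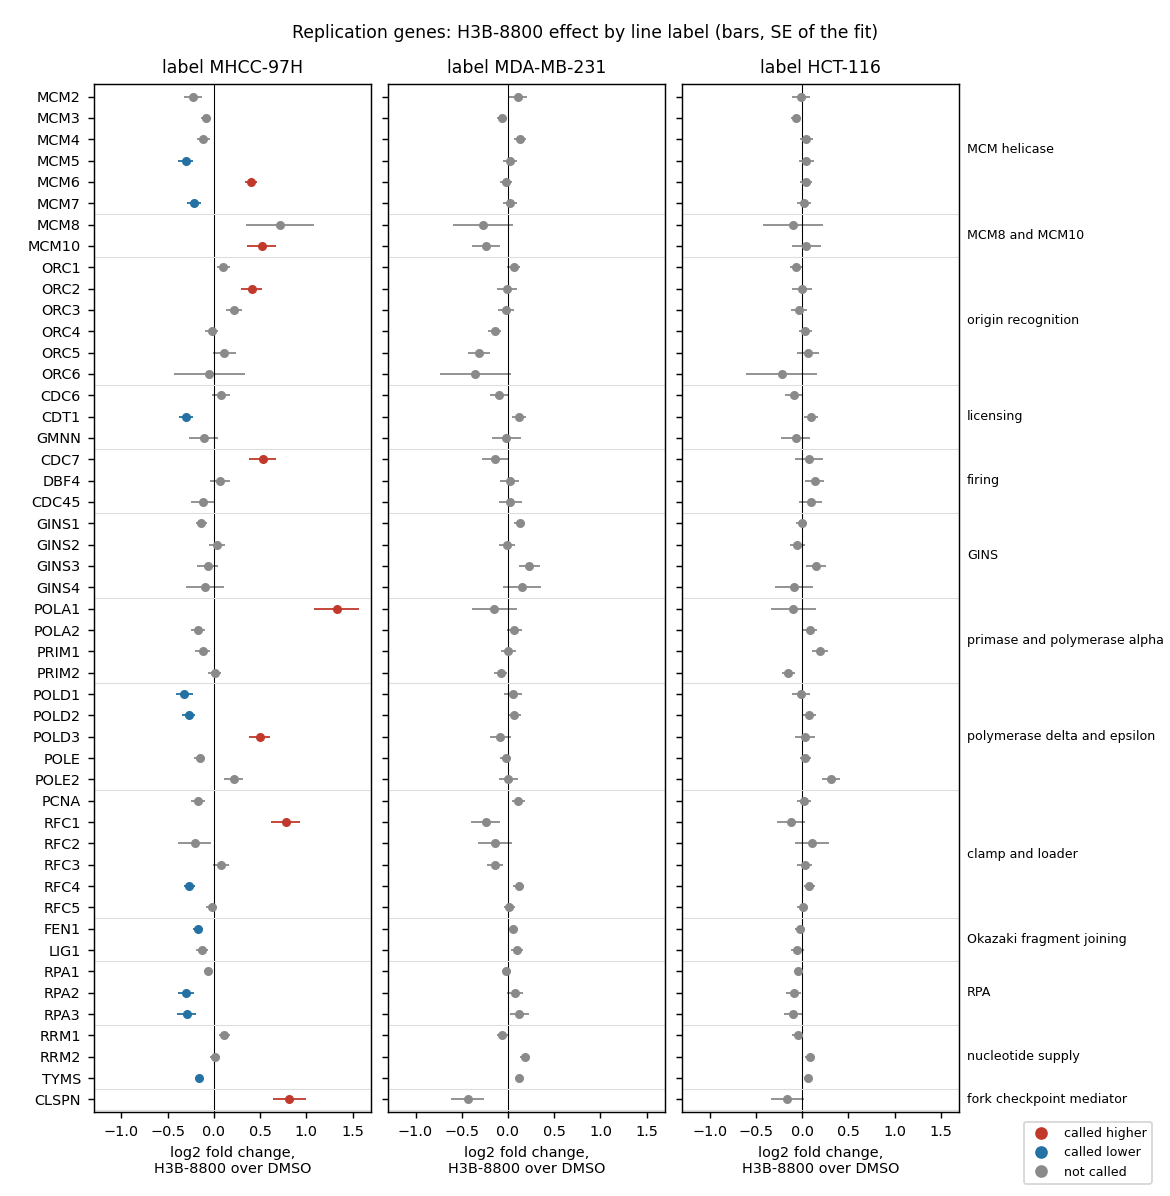
Log2 fold change of each of the 48 replication genes, H3B-8800 over DMSO, under the 3 line labels, with the standard error of the fit as bars and genes grouped by complex. Under the MHCC-97H label 8 genes are called higher (red) and 10 lower (blue), and under the other labels every gene is grey, that is, not called.

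Origin recognition complex genes were mostly not called, with 1 of 6 higher. ORC2, a core subunit of the complex, measured 23.1, 24.8 and 22.5 CPM in the H3B-8800 libraries, against 19.6, 15.5 and 17.9 CPM in the DMSO libraries. Every treated library was above every control, and the gene rose (log2 fold change 0.41, SE 0.11, adjusted p = 0.015). The ORC2 call was lost without DMSO replicate 2 (adjusted p = 0.0699) and without H3B-8800 replicate 2 (0.0576). Of the subunits not called, ORC1, ORC3 and ORC5 had log2 fold changes of 0.10, 0.21 and 0.11, and ORC4 and ORC6 had -0.022 and -0.048. ORC6 overlapped between the groups, at 14.8, 9.08 and 16.5 CPM in treated and 12.1, 15.8 and 13.8 CPM in control libraries. ORC3 and ORC5 each passed the threshold when 1 library was left out: ORC3 without MDA-MB-231 H3B-8800 replicate 3 (0.21, adjusted p = 0.0462) and ORC5 without MHCC-97H DMSO replicate 2 (0.31, adjusted p = 0.0462).

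The licensing factor CDT1, which brings MCM rings to origins, fell, while its partner CDC6 and its inhibitor geminin (GMNN) were not called. CDT1 (chromosome 16, 88803213 to 88809258, GRCh38) measured 327, 309.8 and 329 CPM in the H3B-8800 libraries and 384, 404 and 401 CPM in the DMSO libraries. The groups did not overlap, and the difference passed the test (log2 fold change -0.30, SE 0.078, adjusted p = 0.0121). It missed the threshold without H3B-8800 replicate 2 (adjusted p = 0.0519). CDC6 averaged 39.3 ± 1.82 and 37.3 ± 1.30 CPM, and GMNN 29.8 ± 5.97 and 32.2 ± 2.45 CPM, in the H3B-8800 and DMSO groups (SD, n = 3). Both pairs of groups overlapped.

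With TMM factors, the 6 subunits of the MCM2-7 helicase, which act as 1 ring, split in direction. MCM6 rose, MCM5 and MCM7 fell, and MCM2, MCM3 and MCM4 were not called. With library totals MCM5 and MCM7 were not called. MCM6 (chromosome 2, 135839626 to 135876426) measured 86.8, 86.1 and 87.6 CPM with H3B-8800, against 68.3, 62.7 and 66.2 CPM with DMSO. Its treated libraries lay within 2 CPM of each other and all above the controls (log2 fold change 0.40, SE 0.066, adjusted p = 0.00174), the smallest adjusted p of the 48 genes. MCM5 went the other way, at 183, 174 and 191 CPM against 228, 228 and 222 CPM (log2 fold change -0.31, SE 0.079, adjusted p = 0.0119). MCM7, one of the most abundant members, averaged 371 ± 10.8 CPM with H3B-8800 and 431 ± 18.2 CPM with DMSO (log2 fold change -0.22, SE 0.075, adjusted p = 0.0421). No treated MCM5 or MCM7 library reached the lowest control. MCM5 missed the threshold without H3B-8800 replicate 2 (adjusted p = 0.0535). MCM7 missed it without any 1 of the MHCC-97H libraries other than DMSO replicate 1 (0.0599 to 0.136) and without MDA-MB-231 DMSO replicate 1 or 2 or H3B-8800 replicate 1 or 2 (0.0515 to 0.0528). MCM2, MCM3 and MCM4 had log2 fold changes of -0.23, -0.084 and -0.11, and MCM2 passed the threshold without HCT-116 H3B-8800 replicate 2 (-0.22, adjusted p = 0.0401). The summed level of the 6 subunits was 1620.1 ± 52.2 CPM with H3B-8800 and 1825 ± 61.9 CPM with DMSO.

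Among factors that turn the loaded ring into a moving helicase, CDC7 and MCM10 rose and the others were not called. CDC7, the catalytic subunit of the kinase that phosphorylates MCM proteins, measured 17.1, 19.4 and 17.6 CPM with H3B-8800 and 13.2, 12.7 and 11.6 CPM with DMSO. All treated libraries exceeded all controls (log2 fold change 0.53, SE 0.15, adjusted p = 0.0165), though not past the threshold without DMSO replicate 3 (adjusted p = 0.069) or H3B-8800 replicate 2 (0.0628). Its regulatory subunit DBF4 averaged 10.5 ± 0.448 and 10.0 ± 0.609 CPM (0.065, SE 0.11, adjusted p = 0.713). MCM10, which is needed for origins to open, measured 15.3, 13.8 and 16.9 CPM with H3B-8800 and 11.8, 9.87 and 10.5 CPM with DMSO, again without overlap (log2 fold change 0.52, SE 0.16, adjusted p = 0.0233). The MCM10 call was lost without DMSO replicate 2 or 3 or H3B-8800 replicate 1 or 3 (adjusted p = 0.0542 to 0.0832). CDC45, a subunit of the active helicase, averaged 28.2 ± 2.98 and 30.7 ± 4.17 CPM in the H3B-8800 and DMSO groups. None of the 4 GINS genes, the other cofactor of the helicase, was called. The smallest p was that of GINS1, at 15.4, 16.7 and 16.0 CPM with H3B-8800 and 16.1, 18.5 and 18.3 CPM with DMSO, with overlap (log2 fold change -0.13, SE 0.062, adjusted p = 0.124; -0.20, adjusted p = 0.0292 without DMSO replicate 1). MCM8, a helicase subunit with a role in recombination rather than in the main ring, measured 4.18, 4.79 and 4.03 CPM against 4.34, 1.83 and 1.73 CPM. DMSO replicate 1 lay among the treated libraries, and MCM8 was not called with it (log2 fold change 0.71, SE 0.37, adjusted p = 0.168) but was without it (1.29, adjusted p = 0.0198).

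POLA1 showed the largest change of the set. It encodes the catalytic subunit of DNA polymerase alpha, which with primase starts each new strand, and lies at chromosome X, 24693919 to 24996986. It measured 38.5, 38.8 and 41.4 CPM with H3B-8800, against 21.0, 11.5 and 14.7 CPM with DMSO. The treated libraries were close together and all above the controls, which spread more (log2 fold change 1.33, SE 0.24, adjusted p = 0.00275). The accessory subunit POLA2 (42.7 ± 2.08 against 48.1 ± 1.62 CPM, log2 fold change -0.17) and the primase subunits PRIM1 (-0.12) and PRIM2 (0.010) were not called. POLA2 had every treated library below every control.

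Polymerase delta, which extends the lagging strand, split in direction with TMM factors. With library totals POLD3 was called and POLD1 and POLD2 were not. The same held with the trend on GC content and length removed, where POLD1 was at -0.090 and POLD2 at 0.011. POLD3, an accessory subunit (chromosome 11, 74493851 to 74669117), measured 43.9, 47.4 and 45.5 CPM with H3B-8800 and 36.6, 34.3 and 26.2 CPM with DMSO. It rose with no overlap (log2 fold change 0.49, SE 0.11, adjusted p = 0.00596). The catalytic subunit POLD1 fell, to 145, 132 and 154 CPM against 174, 178 and 185 CPM in controls (log2 fold change -0.32, SE 0.095, adjusted p = 0.0219), and so did the second subunit POLD2, at 222, 212 and 230.2 against 256, 269.9 and 274 CPM (log2 fold change -0.27, SE 0.071, adjusted p = 0.0126). Both had every treated library below every control. POLD1 missed the threshold without DMSO replicate 2 or 3 or H3B-8800 replicate 1 or 2 (adjusted p = 0.0522 to 0.0983), and POLD2 without DMSO replicate 3 (0.0528) or H3B-8800 replicate 2 (0.0561). The polymerase epsilon genes POLE, which encodes the catalytic subunit of the main leading strand polymerase, and POLE2 had log2 fold changes of -0.15 and 0.22 and were not called.

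**Figure D2:**
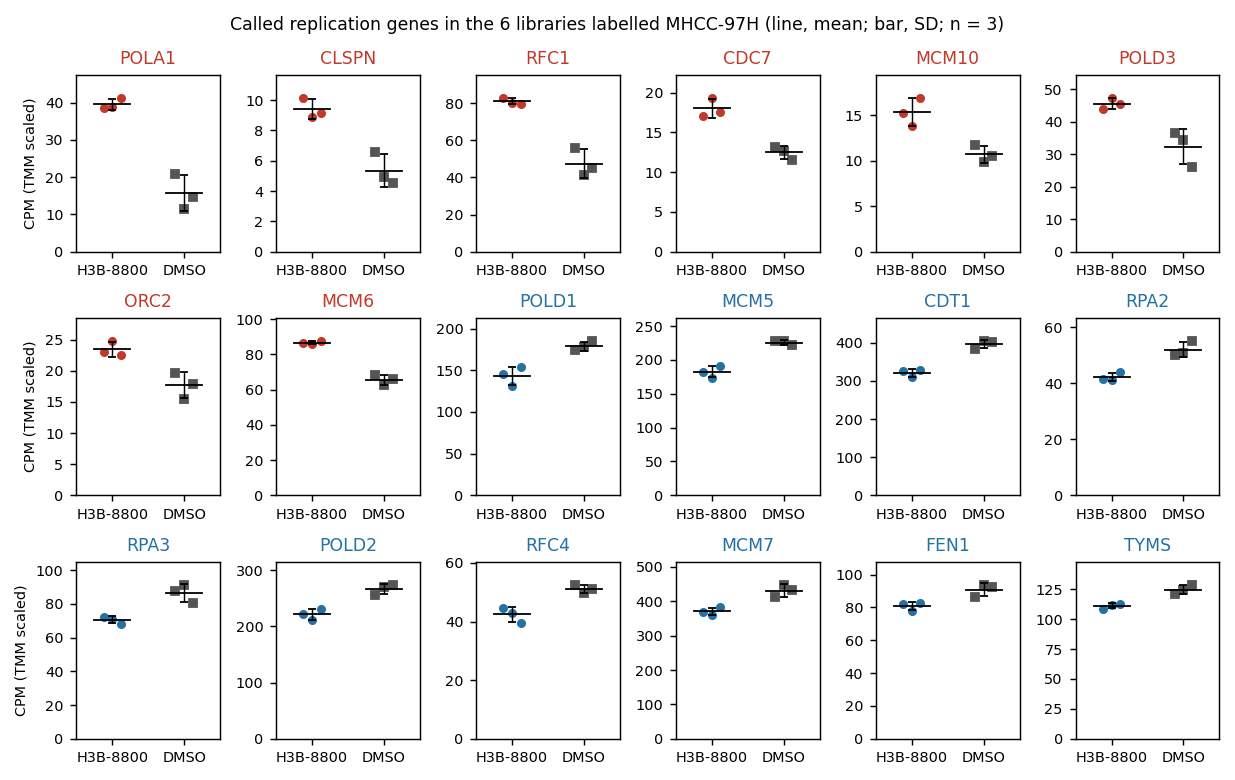
CPM in each of the 6 libraries labelled MHCC-97H for the 18 called genes, H3B-8800 on the left and DMSO on the right of each panel, with the mean as a line and the SD as a bar. In every panel the 3 treated points lie wholly above (red titles) or wholly below (blue titles) the 3 control points.

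The clamp PCNA was not called, while with TMM factors subunits of its loader were called in opposite directions. RFC1, the large subunit of the loader (chromosome 4, 39287456 to 39366375), measured 83.0, 80.4 and 79.7 CPM with H3B-8800 and 56.0, 41.1 and 44.8 CPM with DMSO. It rose with a wide gap between the groups (log2 fold change 0.78, SE 0.16, adjusted p = 0.00408). RFC4, a small subunit (chromosome 3, 186789880 to 186807058), fell to 44.7, 43.0 and 39.6 CPM, against 52.6, 49.6 and 51.1 CPM in controls, also without overlap (log2 fold change -0.27, SE 0.060, adjusted p = 0.00598). RFC2, RFC3 and RFC5 had log2 fold changes of -0.21, 0.078 and -0.025 and were not called. PCNA averaged 46.2 ± 0.665 CPM with H3B-8800 and 51.8 ± 2.81 CPM with DMSO. All its treated libraries were below all controls (log2 fold change -0.17, SE 0.075, adjusted p = 0.113), and it passed the threshold without HCT-116 H3B-8800 replicate 1 (-0.17, adjusted p = 0.0277).

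FEN1, the nuclease that trims Okazaki fragments, fell to 81.9, 78.0 and 82.6 CPM with H3B-8800, against 86.2, 93.9 and 92.6 CPM with DMSO (log2 fold change -0.17, SE 0.055, adjusted p = 0.0321). The groups were apart, but by less than 5 CPM, and the call was lost without DMSO replicate 2 or 3 or H3B-8800 replicate 1 or 2 (adjusted p = 0.0627 to 0.122). LIG1, the ligase that seals the fragments, had -0.13 and was not called. Of the RPA subunits, which coat single-stranded DNA, RPA2 and RPA3 fell and the large subunit RPA1 (-0.068) was not called. RPA2 measured 41.5, 41.4 and 44.0 CPM with H3B-8800 and 50.2, 50.9 and 55.1 CPM with DMSO (log2 fold change -0.30, SE 0.084, adjusted p = 0.0167). RPA3 averaged 70.5 ± 2.02 and 86.5 ± 5.51 CPM (log2 fold change -0.29, SE 0.10, adjusted p = 0.0476). Treated libraries of both genes lay below all controls. The RPA2 call was lost without DMSO replicate 3 or H3B-8800 replicate 1 or 2 (adjusted p = 0.0544 to 0.0754). That of RPA3 was lost without any 1 MHCC-97H library, any 1 MDA-MB-231 library, HCT-116 DMSO replicate 2 or HCT-116 H3B-8800 replicate 1 (0.0527 to 0.149).

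Both subunits of ribonucleotide reductase, the enzyme that makes deoxynucleotides, were not called. RRM2, the subunit that limits activity in S phase, averaged 253 ± 5.50 CPM with H3B-8800 and 251 ± 3.71 CPM with DMSO (log2 fold change 0.0084, SE 0.053, adjusted p = 0.963). RRM1 had 0.11, SE 0.061, adjusted p = 0.192. TYMS, thymidylate synthase, measured 109, 112 and 113 CPM with H3B-8800 and 121, 124 and 129 CPM with DMSO. It fell by a small margin without overlap (log2 fold change -0.17, SE 0.043, adjusted p = 0.012; adjusted p = 0.0621 without DMSO replicate 3). CLSPN, or claspin (chromosome 1, 35720218 to 35769967), which carries the checkpoint signal from ATR to CHK1 at stalled forks, measured 10.2, 8.91 and 9.17 CPM with H3B-8800 and 6.59, 4.91 and 4.54 CPM with DMSO. This low-level gene rose in every treated library relative to every control (log2 fold change 0.82, SE 0.18, adjusted p = 0.00551).

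Ratios of subunits within a library do not depend on scaling. The pairs given here were picked after the values were seen and have no test; levels are per kilobase of exonic length. The POLA1 to POLA2 ratio was 0.838 ± 0.0324 with H3B-8800 and 0.298 ± 0.102 with DMSO (mean ± SD, n = 3). The RFC1 to RFC4 ratio was 0.854 ± 0.0381 and 0.412 ± 0.0561, and the MCM6 to MCM5 ratio 0.848 ± 0.0323 and 0.519 ± 0.0248, in the same order of groups. POLD3 to POLD1 gave 0.286 ± 0.0316 with H3B-8800 and 0.163 ± 0.0320 with DMSO. The treated libraries lay wholly above the controls in each of these 4 pairs, which follows from how the pairs were picked. Each sets a gene called higher over a gene with every treated library below every control. GC content also differed within pairs, for example 45.3% in POLD3 and 64.8% in POLD1, or 41.3% in RFC1 and 44.3% in RFC4. A trend on GC content does not cancel in a ratio. The CDT1 to GMNN ratio, 8.28 ± 2.00 with H3B-8800 and 9.19 ± 0.817 with DMSO, overlapped.

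The lower calls depended on scaling, whereas the 8 higher calls were made with each of the 4 scalings tried. With library totals in place of TMM, the same 8 genes were called higher, joined by ORC1, ORC3, POLE2 and RRM1, and none of the 10 lower genes was called, although all 10 kept a negative log2 fold change. All genes swung the same way: 2501 were called higher and 346 lower with library totals, against 1831 and 2091 of the same 14234 with TMM. Relative log expression scaling ended the calls of MCM7, FEN1 and RPA3, and upper-quartile scaling those of MCM7, FEN1, RPA3 and POLD1. MCM7 was not called by DESeq2 (adjusted p = 0.0689), nor RPA3 with no filter (0.0551), and in a fit of the MHCC-97H libraries alone FEN1 (-0.11, adjusted p = 0.131) and TYMS (-0.11, adjusted p = 0.0824) were not called. That fit gained ORC1 (0.16, adjusted p = 0.0175), ORC3 (0.27, adjusted p = 0.0321) and RRM1 (0.17, adjusted p = 0.0285) as higher. The TMM factors were 0.952 to 0.967 in the H3B-8800 libraries and 0.86 to 0.891 in the DMSO libraries. The members together took 0.426% to 0.434% of all counts with H3B-8800 and 0.418% to 0.429% with DMSO. The share of mitochondrially encoded counts also moved with treatment, at 1.37% to 1.39% with H3B-8800 and 1.14% to 1.22% with DMSO, and its part in the result was not tested.

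**Figure D3:**
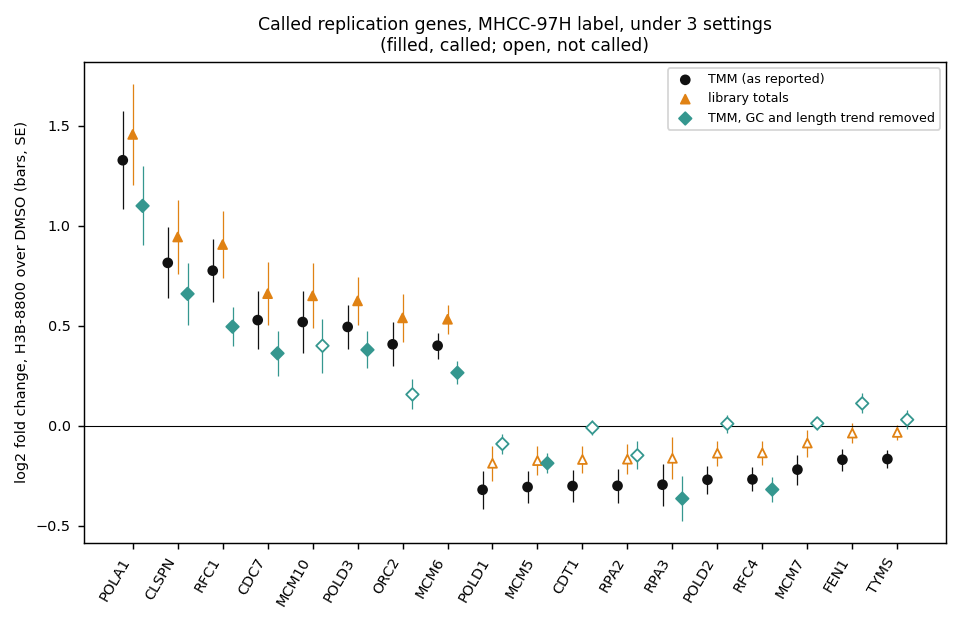
Log2 fold change, H3B-8800 over DMSO, of the 18 genes called in MHCC-97H libraries, fitted with TMM factors, with library totals, and with the trend on GC content and length removed (bars, standard error; filled, called; open, not called). All 8 higher genes are above 0 in the 3 fits, and with library totals every lower gene is open.

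Direction ran with the base composition of the transcripts. Under the MHCC-97H label, Spearman's rho between the log2 fold change and the GC content of the gene's transcripts was -0.672 across the 48 members. Across 14223 genes it was -0.529. The sign was opposite under the other labels, where rho was 0.458 over the members and 0.319 over all genes in MDA-MB-231, and 0.081 and 0.181 in HCT-116. With exonic length rho was 0.285 over the members and 0.358 over all genes under MHCC-97H, -0.216 and -0.165 under MDA-MB-231, and -0.206 and -0.116 under HCT-116. These are descriptions, since genes share libraries. The 8 higher genes had 40.7% to 45.3% GC, the 10 lower genes 44.0% to 65.2%, and the 30 not called 37.6% to 58.5%. In the third of members with the lowest GC, 5 of 16 were higher and 0 lower, and in the third with the highest GC 0 were higher and 7 lower. The median number of introns was 18 in the higher genes (11 to 37) and 9.5 in the lower genes (1 to 26). It was 13.5 in the genes not called (4 to 48), and the ranges overlapped. Among single genes, FEN1 (lower) has 1 intron, POLD1 (lower) 26, POLA1 (higher) 37 and POLE (not called) 48. With the trend on GC content and length removed, POLA1 (1.10), CLSPN (0.66), RFC1 (0.50), POLD3 (0.38), CDC7 (0.36) and MCM6 (0.27) were still called higher, and ORC2 (0.16, adjusted p = 0.194) and MCM10 (0.40, adjusted p = 0.0615) were not. RFC4 (-0.32), RPA3 (-0.36) and MCM5 (-0.19) were still called lower. CDT1, POLD1 and RPA2 were no longer called (-0.0092, -0.090 and -0.15), and TYMS, POLD2, FEN1 and MCM7 changed sign without a call. ORC1 was gained as higher, and ORC4, GINS1, PRIM1 and POLE as lower. Over all genes 1041 were called higher and 1068 lower in this fit.

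**Figure D4:**
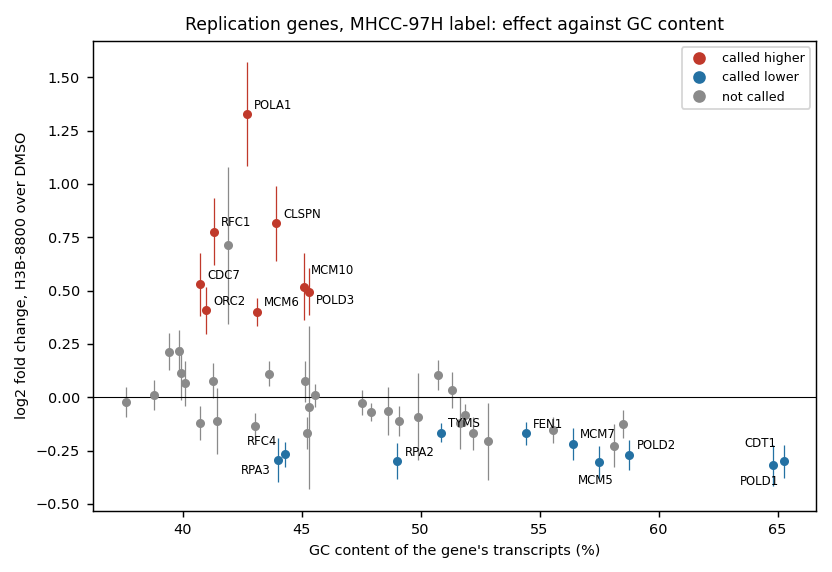
Log2 fold change of the 48 genes under the MHCC-97H label, H3B-8800 over DMSO, against the GC content of their transcripts, with the standard error of the fit as bars and called genes named. The 8 genes called higher (red) lie between 40.7% and 45.3% GC, and 7 of the 10 called lower (blue) are in the third of members with the highest GC.

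Of the 18 called genes, 9 share exon sequence with a neighbour on either strand: MCM7 with AP4M1, POLD1 with AC020909.1, POLD3 with AP001372.2, RFC4 with EIF4A2, FEN1 with FADS2 and TMEM258, RPA3 with UMAD1 and AC007161.3, TYMS with ENOSF1 and TYMSOS, CLSPN with AL354864.1 and ORC2 with AC005037.1. The strand setting of the counts is not given in the sources used here, so reads of these pairs may not be told apart. Annotated pseudogenes carry the names of POLD2, FEN1, RPA2 and TYMS among the called genes, which makes their counts less certain.

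Neither under MDA-MB-231 nor under HCT-116 was any member called for the H3B-8800 effect by edgeR, where 0.0351% of all genes were called under each. At an unadjusted p under 0.05, edgeR gave 4 members under the MDA-MB-231 label, where 7.19% of all genes passed, and 2 under the HCT-116 label, where 4.6% did. DESeq2 and limma voom also called none. Treated and control libraries did not overlap for 15 members under the MDA-MB-231 label and for 2 under HCT-116, where 18.5% and 7% of all genes did not. The 4 were RRM2 (0.19, SE 0.053, adjusted p = 0.511), TYMS (0.12, SE 0.043, adjusted p = 0.57), ORC5 (-0.31, SE 0.12, adjusted p = 0.6) and CLSPN (-0.44, SE 0.18, adjusted p = 0.652). The 2 were POLE2 (0.31, SE 0.099, adjusted p = 0.923) and PRIM1 (0.19, SE 0.082, adjusted p = 1.00). Median log2 fold changes of the members were 0.0034 and 0.011 under these labels, against -0.0022 and 0 over all genes. POLA1 measured 20.9, 18.6 and 15.4 CPM with H3B-8800 and 22.6, 18.7 and 19.5 CPM with DMSO in MDA-MB-231 libraries. In HCT-116 libraries it measured 21.2, 11.1 and 19.5 CPM with H3B-8800 and 20.1, 13.7 and 21.5 CPM with DMSO. In that label, replicate 2 was the low library of both groups for POLA1, and also for RFC1 (86.1, 55.9 and 84.0 against 91.9, 66.4 and 87.4 CPM) and MCM8 (25.5, 10.4 and 24.3 against 25.2, 14.6 and 24.6 CPM). RRM2 came closest to a shared change in these 12 libraries, at 82.6, 84.0 and 81.0 CPM against 77.6, 68.3 and 71.7 CPM in MDA-MB-231 and 75.7, 78.1 and 70.8 CPM against 67.0, 70.2 and 73.8 CPM in HCT-116. Averaged over both labels, an alternative chosen after seeing the data, it had 0.14, SE 0.038, adjusted p = 0.379, and 0 members were called by edgeR (7 at an unadjusted p under 0.05), where 0.0422% of all genes were called.

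The H3B-8800 effect differed between the 3 labels for 9 members in a test of the interaction, where 15.4% of all genes differed. They were CLSPN, RFC1, RFC4, TYMS, MCM6, POLA1, CDT1, POLD3 and POLD2, with adjusted p of 0.0139 to 0.0394. The count was 4 without MHCC-97H DMSO replicate 2, 0 without MHCC-97H DMSO replicate 3, 5 without MHCC-97H H3B-8800 replicate 1 and 15 without HCT-116 H3B-8800 replicate 1, and 15 with a block for the replicate number. All genes called in these 5 fits numbered 670, 565, 899, 2582 and 3585, against 2197. With library totals the interaction was lost for the 4 genes that fell under the MHCC-97H label (adjusted p = 0.144 for CDT1, 0.269 for POLD2, 0.153 for RFC4 and 0.3 for TYMS). With the trend on GC content and length removed it was lost for MCM6 (0.128), CDT1 (0.762), POLD2 (0.959), POLD3 (0.0976) and TYMS (0.962). Without MHCC-97H DMSO replicate 3 the 9 genes had adjusted p of 0.0501 to 0.112. In pairwise tests, the effect under the MHCC-97H label exceeded that under the MDA-MB-231 label for 7 members and was below it for 6, where 20.2% of all genes differed, 10.5% above and 9.67% below. Against the HCT-116 label it was above for 4 and below for 5, where 13.2% of all genes differed, 7.01% above and 6.18% below. For POLA1 the log2 fold change was larger by 1.48 (SE 0.34, adjusted p = 0.0117) than under the MDA-MB-231 label and by 1.42 (SE 0.34, adjusted p = 0.0226) than under the HCT-116 label. Both comparisons use the same MHCC-97H libraries. MCM6 had 63.3, 61.4 and 62.4 CPM with H3B-8800 and 65.8, 59.8 and 64.4 CPM with DMSO in MDA-MB-231, and 67.4, 54.9 and 59.3 CPM with H3B-8800 and 58.0, 57.9 and 60.6 CPM with DMSO in HCT-116. CLSPN had 3.80, 4.16 and 3.14 CPM with H3B-8800 and 5.79, 4.71 and 4.55 CPM with DMSO in MDA-MB-231, and 3.98, 3.35 and 4.28 CPM with H3B-8800 and 4.77, 3.36 and 4.82 CPM with DMSO in HCT-116. No MHCC-97H treated library of either gene was reached by any of these 12. RFC4 had 49.4, 47.7 and 48.8 CPM with H3B-8800 and 44.7, 45.0 and 45.2 CPM with DMSO in MDA-MB-231, and 42.0, 47.3 and 41.4 CPM with H3B-8800 and 41.7, 40.7 and 41.5 CPM with DMSO in HCT-116. TYMS had 86.6, 89.2 and 87.8 CPM with H3B-8800 and 83.1, 81.6 and 77.7 CPM with DMSO in MDA-MB-231, and 83.0, 86.1 and 86.0 CPM with H3B-8800 and 80.4, 84.0 and 79.7 CPM with DMSO in HCT-116. In MDA-MB-231 every treated library of both genes was above every control, while in HCT-116 RFC4 and TYMS overlapped. CDT1 had 147, 154 and 159.7 CPM with H3B-8800 and 140.4, 142 and 143 CPM with DMSO in MDA-MB-231, and 137, 174 and 154 CPM with H3B-8800 and 137, 163 and 136 CPM with DMSO in HCT-116. POLD2 had 99.6, 110.1 and 102 CPM with H3B-8800 and 99.4, 95.0 and 103 CPM with DMSO in MDA-MB-231, and 94.8, 112 and 101 CPM with H3B-8800 and 89.3, 106 and 98.1 CPM with DMSO in HCT-116. POLD3 had 28.5, 29.2 and 26.9 CPM with H3B-8800 and 30.5, 30.3 and 28.9 CPM with DMSO in MDA-MB-231, and 31.0, 24.2 and 29.3 CPM with H3B-8800 and 26.6, 26.8 and 29.4 CPM with DMSO in HCT-116. For these 3 genes the HCT-116 groups overlapped. Between MDA-MB-231 and HCT-116 the effect differed for 0 members, with 2 at an unadjusted p under 0.05, where 0.0351% of all genes differed.

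In DMSO libraries the replication genes were expressed at unlike levels under the MHCC-97H label and under the other 2 labels. Of the 48 members, 25 were higher and 10 lower in MHCC-97H DMSO than in the mean of the other DMSO groups, where 40.7% of all genes were higher and 43.9% lower. The 35 called are a smaller share than the 84.6% of all genes. Medians of the log2 difference were 0.22 over the members and -0.083 over all genes with TMM, and -0.045 and -0.35 with library totals, so relative to the average gene the members were higher in both. With library totals 19 members were higher and 18 lower, where 4954 of all 14234 genes were higher and 7173 lower.

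RRM2 stood out among the higher genes, at 247, 254 and 254 CPM in MHCC-97H DMSO, against 77.6, 68.3 and 71.7 CPM in MDA-MB-231 DMSO and 67.0, 70.2 and 73.8 CPM in HCT-116 DMSO (log2 difference 1.82, SE 0.044, adjusted p = 2.88e-15). Every MHCC-97H library was above every other DMSO library. ORC1, the largest origin recognition subunit, measured 104, 105 and 105 CPM, against 32.7, 29.7 and 36.7 and 35.1, 33.6 and 31.5 CPM in DMSO libraries of MDA-MB-231 and HCT-116 (log2 difference 1.66). Both genes are nearly level across the 3 MHCC-97H libraries. CDT1 measured 384, 404 and 401 CPM in MHCC-97H DMSO, against 140.4, 142 and 143 CPM in MDA-MB-231 DMSO and 137, 163 and 136 CPM in HCT-116 DMSO (1.47). POLD2 measured 256, 269.9 and 274 CPM in MHCC-97H DMSO, against 99.4, 95.0 and 103 CPM in MDA-MB-231 DMSO and 89.3, 106 and 98.1 CPM in HCT-116 DMSO (1.44). Every MHCC-97H library of these genes was above all 6 others. PRIM2, the large primase subunit, measured 43.0, 43.6 and 45.1 CPM in MHCC-97H DMSO, against 20.1, 19.8 and 18.2 CPM in MDA-MB-231 DMSO and 20.6, 20.0 and 20.6 CPM in HCT-116 DMSO (1.14). TYMS measured 121, 124 and 129 CPM in MHCC-97H DMSO, against 83.1, 81.6 and 77.7 CPM in MDA-MB-231 DMSO and 80.4, 84.0 and 79.7 CPM in HCT-116 DMSO (0.62). The groups were apart for both genes.

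Within the MCM ring, MCM2 and MCM3 were the clearest. MCM2 measured 575, 648 and 617 CPM in MHCC-97H DMSO, against 201, 240.0 and 246 CPM in MDA-MB-231 DMSO and 206, 223 and 236 CPM in HCT-116 DMSO (1.44, adjusted p = 1.31e-10). MCM3 measured 213, 213 and 215 CPM in MHCC-97H DMSO, against 115, 119 and 120.1 CPM in MDA-MB-231 DMSO and 117, 119 and 116 CPM in HCT-116 DMSO (0.86). Neither gene overlapped between the labels. Of the loader, RFC5 measured 92.7, 95.0 and 93.7 CPM in MHCC-97H DMSO, against 49.8, 51.9 and 53.1 CPM in MDA-MB-231 DMSO and 48.9, 48.7 and 49.6 CPM in HCT-116 DMSO (0.90), and of RPA, RPA3 measured 87.6, 91.4 and 80.5 CPM in MHCC-97H DMSO, against 30.6, 33.2 and 33.1 CPM in MDA-MB-231 DMSO and 26.7, 31.2 and 33.3 CPM in HCT-116 DMSO (1.47). LIG1, the joining gene with the smaller p, measured 65.6, 65.5 and 65.1 CPM in MHCC-97H DMSO, against 47.6, 47.6 and 55.5 CPM in MDA-MB-231 DMSO and 51.6, 54.7 and 48.9 CPM in HCT-116 DMSO (0.36). LIG1 was not called with library totals, nor with the trend on GC content and length removed (0.12, adjusted p = 0.0534). All 3 licensing factors, all 3 RPA subunits and RFC2 to RFC5 were higher with TMM under the MHCC-97H label. With library totals CDC6, RPA1 and RFC4 were not called, and RFC4 had a log2 difference of -0.024.

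Lower genes under the MHCC-97H label came from the same complexes. GINS1 measured 16.1, 18.5 and 18.3 CPM in MHCC-97H DMSO, against 61.9, 64.5 and 65.7 CPM in MDA-MB-231 DMSO and 63.3, 62.3 and 61.2 CPM in HCT-116 DMSO (log2 difference -1.84, adjusted p = 5.66e-14), while GINS2, in the same complex, was higher (0.88). PCNA measured 49.1, 51.5 and 54.7 CPM, against 132, 133 and 139 and 123, 127 and 130.4 CPM (-1.34). DBF4 measured 9.64, 10.7 and 9.70 CPM in MHCC-97H DMSO, against 38.4, 36.5 and 37.6 CPM in MDA-MB-231 DMSO and 37.3, 32.3 and 36.1 CPM in HCT-116 DMSO (-1.86). For these 3 genes no MHCC-97H library reached any library of the other labels. MCM8 was the most unlike, at 4.34, 1.83 and 1.73 CPM, against 26.5, 24.9 and 20.8 and 25.2, 14.6 and 24.6 CPM (-3.10, adjusted p = 5.83e-07). RFC1 (-0.78, 56.0, 41.1 and 44.8 CPM in MHCC-97H DMSO, against 81.6, 83.4 and 76.2 CPM in MDA-MB-231 DMSO and 91.9, 66.4 and 87.4 CPM in HCT-116 DMSO) and ORC2 (-0.61) were lower too. The MHCC-97H DMSO libraries enter both this comparison and that of H3B-8800 with DMSO. After H3B-8800, RFC1 in MHCC-97H averaged 81.0 CPM, against 80.4 CPM in MDA-MB-231 DMSO and 81.9 CPM in HCT-116 DMSO. ORC2 and MCM8 stayed lower on average. Per kilobase of exonic length, ORC2 averaged 4.02 CPM, against 4.65 and 4.63 CPM, in the same order of groups. MCM8 averaged 0.564 CPM, against 3.13 and 2.79 CPM. MCM6, MCM7, MCM10, POLD3, POLA1, CLSPN and CDC7 were among the members not called between the DMSO groups. CLSPN was called higher there with the trend on GC content and length removed (log2 difference 0.60). Between MDA-MB-231 DMSO and HCT-116 DMSO 0 members were called in edgeR, DESeq2 and limma voom, with 2 at an unadjusted p under 0.05 in edgeR, where 0.0351% and 4.13% of all genes passed.

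Per kilobase of exonic length, levels in MHCC-97H DMSO ran from 0.342 ± 0.192 CPM for MCM8 to 125 ± 7.51 CPM for MCM2, with CDT1 (119 ± 3.33) and MCM7 (98.3 ± 4.15) next. In HCT-116 DMSO the order began with MCM7 (108 ± 8.59), PCNA (86.4 ± 2.38) and MCM2 (45.2 ± 2.99). The levels of MCM2 and CDT1 in MHCC-97H DMSO lay within their spread of each other. Subunits of the MCM ring, present in equal number in the protein, ranged in MHCC-97H DMSO from 16.0 ± 0.691 CPM per kilobase for MCM6 to 125 ± 7.51 for MCM2.

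**Figure D5:**
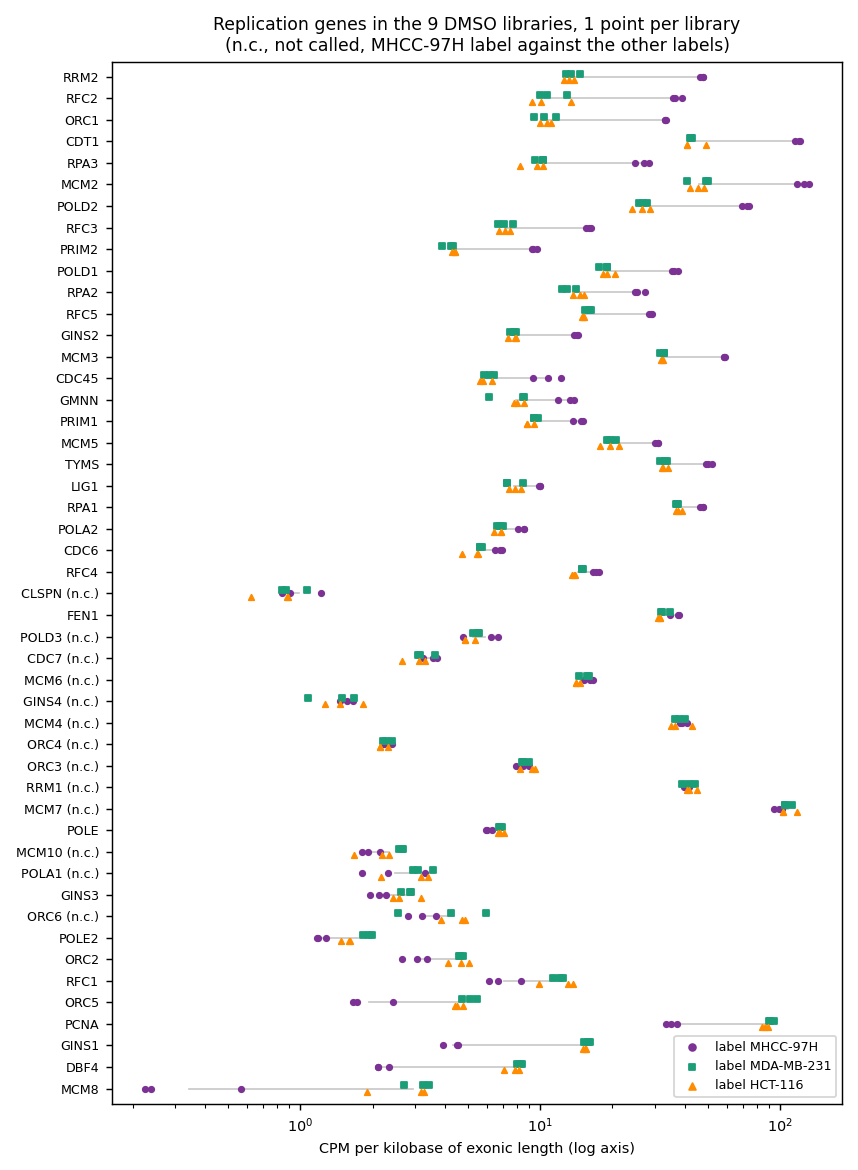
CPM per kilobase of exonic length (log axis) of the 48 genes in each of the 9 DMSO libraries, ordered by the log2 difference between the MHCC-97H label and the mean of the others, with grey lines joining the means and n.c. for genes not called. RRM2 is at the top and MCM8 at the bottom, and points of the other 2 labels largely lie together.

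Other genes of DNA replication, from lists beside the 48 members, also split under the MHCC-97H label, and 0 were called under the other labels in edgeR, with 0 to 3 of each list at an unadjusted p under 0.05, where 7.19% of all genes passed in MDA-MB-231 and 4.6% in HCT-116. The lists' counts stand beside 12.9% of all genes higher and 14.7% lower in MHCC-97H. Of 24 other replisome and origin factors, 6 were higher and 4 lower after H3B-8800, with a median log2 fold change of 0.0016. The called were 4 higher and 2 lower without MHCC-97H DMSO replicate 2, 5 and 1 without DMSO replicate 3, and 5 and 0 with the trend on GC content and length removed. TOPBP1, which activates ATR and helps origins fire, averaged 46.3 CPM with H3B-8800 and 18.5 CPM with DMSO (log2 fold change 1.33, SE 0.25, adjusted p = 0.00332). TOP2A, a topoisomerase of S phase and mitosis, averaged 245 and 102 CPM (1.26, SE 0.25, adjusted p = 0.00396). POLD4, the smallest polymerase delta subunit, fell (-0.39, SE 0.079, adjusted p = 0.00412), but not past the threshold after removal of the trend on GC and length (-0.072, adjusted p = 0.518). Of 5 alternative clamp loaders and unloaders, ATAD5, which takes PCNA off DNA, rose (0.93, SE 0.27, adjusted p = 0.0187), a call lost without MHCC-97H DMSO replicate 2 or 3 or H3B-8800 replicate 1 or 2 (adjusted p = 0.0543 to 0.0844) and after removal of the trend (0.60, adjusted p = 0.0519).

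Of 11 further genes of nucleotide supply, 0 were higher and 4 lower, with a median of -0.16. NME1, a nucleoside diphosphate kinase, fell (-0.36, SE 0.088, adjusted p = 0.00932), as did the folate enzyme SHMT1 (-0.23, SE 0.064, adjusted p = 0.0165) and thymidylate kinase DTYMK (-0.29, SE 0.087, adjusted p = 0.0241). SHMT1 was not called without DMSO replicate 3 or H3B-8800 replicate 2 (adjusted p = 0.0638 and 0.0716), nor DTYMK without DMSO replicate 2 or H3B-8800 replicate 1 or 2 (0.0741 to 0.112). With the trend on GC content and length removed DTYMK turned positive (0.022, adjusted p = 0.922). With library totals this list had 2 higher and 0 lower, and none of the 3 was called. It had 0 higher and 1 lower without H3B-8800 replicate 2, and 0 and 2 without DMSO replicate 3 or without H3B-8800 replicate 1. Of 25 genes of S phase entry and E2F, 8 were higher and 2 lower, with a median of 0.0059. These counts were 4 and 0 without DMSO replicate 2, 4 and 1 without DMSO replicate 3, 5 and 1 without H3B-8800 replicate 1, 3 and 1 without H3B-8800 replicate 2, and 3 and 1 with the trend on GC content and length removed. DTL, a factor that targets CDT1 for degradation, averaged 106 CPM with H3B-8800 and 65.4 CPM with DMSO (log2 fold change 0.70, SE 0.13, adjusted p = 0.00247), and the pocket protein genes RB1 (0.47, SE 0.10, adjusted p = 0.00489) and RBL2 (0.49, SE 0.11, adjusted p = 0.00744), repressors of E2F targets, rose as well. After removal of the trend on GC and length RB1 lost its call (0.18, adjusted p = 0.0602). Of 11 checkpoint genes 2 were higher, with a median of 0.32: ATR, the kinase of stalled forks, averaged 5.66 and 2.33 CPM (1.28, SE 0.30, adjusted p = 0.00755), and FANCD2 rose (0.55, SE 0.18, adjusted p = 0.0311). The list's median was 0.14 without H3B-8800 replicate 2 and 0.032 with the trend on GC content and length removed, where FANCD2 was not called (0.27, adjusted p = 0.166). FANCD2 was lost without any 1 MHCC-97H library other than DMSO replicate 1 (adjusted p = 0.0559 to 0.103), and limma voom called neither (ATR adjusted p = 0.0768).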

How the data were processed

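RNA-seq read counts per gene were deposited by the authors as 1 table of raw counts for 18 libraries, 28232315 to 41488278 per library. The submitters' processing notes name HISAT2, fastp and GRCh38; the counting tool, its annotation and its strand setting were not stated. Members and lists were chosen with earlier results of these data known. Counts were tested with edgeR 4.0.16 (R 4.3.3): TMM scaling, filterByExpr by group, and the robust quasi-likelihood F test on 6 group means over all 18 libraries, which share one estimate of the spread. P-values were adjusted by Benjamini-Hochberg over 14234 genes, and a gene was called at an adjusted p under 0.05. Limits from counts of 0 cover counting error only. Exonic length, GC content and overlaps came from GENCODE 29 (20224 of 20263 genes matched by identifier). Promoters came from RefSeq.

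Per-library values are given for called members in order of adjusted p, at most 12 per comparison, and for the member of each complex with the smallest adjusted p; this was not carried out where no member was called, and there fold changes of members at an unadjusted p under 0.05 are given. Up to 3 called genes are named per further list.

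Under the HCT-116 label same-numbered libraries had r = 0.247, 0.473 and 0.137 over 10266 genes. Pairs of replicate 2 with another number had r = -0.374 to -0.188. H3B-8800 replicate 3 had r = 0.248 with DMSO replicate 1, above its value with DMSO replicate 3. H3B-8800 replicate 1 had 0.111 with DMSO replicate 3. The numbers thus did not clearly pair these libraries, and the main fit used no replicate block. Under the MHCC-97H (-0.001 to 0.057) and MDA-MB-231 (-0.038 to 0.095) labels same-numbered libraries did not deviate together. Alternatives were other scalings, no filter and a filter of 50 counts in 3 libraries, limma 3.58.1 voom, DESeq2 1.42.0, each label fitted alone, a replicate block, removal of a trend on GC content and length, and leaving out each library. No 2 libraries were duplicates: the smallest chi-square per degree of freedom over 153 pairs was 20.6. This closest pair was MDA-MB-231 DMSO replicate 1 and HCT-116 H3B-8800 replicate 1, which differ in label and treatment. The closest pair within a group had 21.5. The edgeR fit was tested on simulated counts.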

Additional observations from a re-analysis of the deposited data

Results flagged for a closer look

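For 9 members a test of the interaction found that the H3B-8800 effect differed between the 3 line labels (edgeR). The adjusted p was 0.0139 for CLSPN, 0.0161 for RFC1, 0.0162 for RFC4, 0.0163 for TYMS, 0.0169 for MCM6, 0.0172 for POLA1, 0.0293 for CDT1, 0.039 for POLD3 and 0.0394 for POLD2. CLSPN, RFC1, MCM6, POLA1 and POLD3 were higher with H3B-8800 under the MHCC-97H label, and RFC4, TYMS, CDT1 and POLD2 were lower there. With the other 2 labels none of the 9 was called. With library totals the interaction was lost for RFC4, TYMS, CDT1 and POLD2, and with the trend on GC content and length removed for MCM6, CDT1, POLD2, POLD3 and TYMS. It was found in 15 of 28 alternatives for CDT1, 14 of 28 for POLD3 and 12 of 28 for POLD2. Without MHCC-97H DMSO replicate 3 none of the 9 differences passed the threshold.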

How the results depend on the processing

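Under the MHCC-97H label the number of members called for H3B-8800 over DMSO ranged from 8 to 19 when single libraries were left out, against 18 with all. It was 15 with relative log expression scaling, 14 with upper-quartile scaling, 12 with library totals, 17 with DESeq2, 18 with limma voom and 14 with the trend on GC content and length removed. The calls over all 14234 genes in these 6 fits numbered 3536, 3244, 2847, 4294, 4054 and 2109, against 3922. The number whose effect differed between labels ranged from 0 to 15 on leaving out 1 library, against 9, and was 15 with the replicate block. The block gave 19 members for the MHCC-97H effect, gaining MCM8 (0.80) and POLE (-0.15) and losing RPA3 (adjusted p = 0.0686), and 0 for each of the other 2 labels. With the trend on GC content and length removed, log2 fold changes that had been negative were 0.0307 for TYMS, 0.0107 for POLD2, 0.112 for FEN1 and 0.0126 for MCM7, and with the replicate block as well 0.0307, 0.0106, 0.112 and 0.0128 for the same genes; none was called. The DMSO difference of CLSPN, not called, was -0.066 with library totals, and it was called at 0.60 with the trend on GC content and length removed (0.59 with the block). Between DMSO groups 35 to 37 members were called on leaving out 1 library. The cause was not tested. The lowest count of a member was 45, for MCM8 in 1 DMSO library.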
